A study of Mus musculus with 12 samples.

Results

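Interferon gamma (IFNγ), the receptors of the cytokines that induce it, its lineage transcription factor and the receptors of both interferon types were followed across 12 mouse prostate tumors by RNA sequencing. The 10 genes were chosen by symbol, from the 55401 Ensembl genes of the count table, and all 10 were found there. They are the cytokine gene Ifng, the IFNγ receptor chains Ifngr1 and Ifngr2, the type I interferon receptor chains Ifnar1 and Ifnar2, the interleukin-12 receptor chains Il12rb1 and Il12rb2, the transcription factor gene Tbx21, the interleukin-18 receptor chain Il18r1 and the interleukin-18 binding protein Il18bp. TC2Ras, a mouse prostate cancer cell line, was injected under the skin of both flanks, and the tumors of a mouse were combined at day 21. Control tumors grew from TC2Ras cells alone in mice drinking water with 0 ppb inorganic arsenic (iAs), and ASC tumors from TC2Ras cells with 1% ASC-GFP at the same 0 ppb. The ASC-GFP cells were primary adipose stromal cells from male C57BL/6 mice with a GFP transgene. As300 tumors grew from TC2Ras cells alone in mice whose drinking water held 300 ppb iAs from implantation on, and ASC_As300 tumors combined 1% ASC-GFP with 300 ppb iAs. There were 3 tumors in each group, every mouse had low-arsenic AIN-76A chow and Milli-Q water before implantation, and the strain and age of the implanted mice are not given in the sources used here. The labels name stromal cells as the cell type while the protocols describe excised tumors, and the libraries were treated as whole tumors.

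IFNγ is made chiefly by activated T cells and natural killer (NK) cells. Interleukin-12 and interleukin-18 from myeloid cells act on those lymphocytes through receptors that include Il12rb1, Il12rb2 and Il18r1, and T-bet, the product of Tbx21, activates Ifng there. IFNγ then binds a receptor of Ifngr1 and Ifngr2 chains, present on most cells, and the kinases Jak1 and Jak2 pass the signal on to target genes, many of which hold a gamma-activated site (GAS). Type I interferons use the chains Ifnar1 and Ifnar2 and a complex that includes Stat2 and Irf9, and Il18bp is a secreted protein that binds interleukin-18 and keeps it from its receptor.

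RefSeq promoter windows, cut to the 250 bases before the annotated start (GRCm38.p6), were found for 9 of the 10 genes, the exception being Il12rb1. They were searched on both strands for the GAS letters TTCNNNGAA, which 7.02% of 32851 promoter windows of that length hold, and for the core of the interferon-stimulated response element, 2 GAAA repeats with any 2 bases between them, which 2.98% hold. No window of the genes held the latter core. The windows of Ifng, Il12rb2 and Ifnar2 that hold a GAS match and no annotated exon base are shown because GAS letters are known from the promoters of IFNγ target genes, with the match in capitals.
Ifng, chr10:118440796-118441045, plus strand: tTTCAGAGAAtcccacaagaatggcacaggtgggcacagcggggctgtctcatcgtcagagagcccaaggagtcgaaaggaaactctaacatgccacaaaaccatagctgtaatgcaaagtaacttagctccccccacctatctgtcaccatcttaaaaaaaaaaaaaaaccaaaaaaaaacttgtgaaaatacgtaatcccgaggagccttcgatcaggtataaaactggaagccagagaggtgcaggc
Il12rb2, chr6:67376189-67376438, minus strand: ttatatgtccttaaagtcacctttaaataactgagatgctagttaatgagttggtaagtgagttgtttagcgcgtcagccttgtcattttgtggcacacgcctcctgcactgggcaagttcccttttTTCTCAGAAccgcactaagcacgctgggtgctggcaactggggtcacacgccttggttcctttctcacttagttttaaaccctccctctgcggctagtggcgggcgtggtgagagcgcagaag
Ifnar2, chr16:91372533-91372782, plus strand: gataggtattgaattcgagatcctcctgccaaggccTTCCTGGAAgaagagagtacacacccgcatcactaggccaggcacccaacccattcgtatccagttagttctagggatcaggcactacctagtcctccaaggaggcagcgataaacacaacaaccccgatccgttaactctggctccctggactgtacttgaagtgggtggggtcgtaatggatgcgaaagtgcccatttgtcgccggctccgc
The match lay 249 to 241 bases before the start in Ifng, 123 to 115 in Il12rb2 and 214 to 206 in Ifnar2. The windows of Tbx21, Ifnar1, Ifngr1, Ifngr2 and Il18bp had no match, and 1 of the windows of Il18r1 had a pair of matches. The Il18bp window lay inside the annotated gene, with 250 annotated exon bases, so that bases before the outermost start of that gene were not searched. A match describes letters and says nothing of binding in these tumors.

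The deposited values were whole-number counts without normalization. Totals per tumor ran from 39157647 to 55168642, and low values heaped at 4: each tumor had at least 1137 genes with 4 counts and at most 414 with 5. Therefore 4 counts were taken as 1 read pair and 12 counts as the floor. Levels below are CPM, counts as a share of all counts of a tumor, scaled with TMM factors, and a gene was called when edgeR's quasi-likelihood test gave a Benjamini-Hochberg adjusted p under 0.05 over 20818 tested genes and the change was at least 1.5-fold. Control replicate 1 stood apart in several marker sums. Its B and plasma cell markers summed to 192.7 CPM against at most 14.3 in any other tumor, its T cell markers to 77.1 CPM against 11.8 to 17.9 in the other tumors without ASC, and its epithelial markers to 360 CPM against at most 116. Results that rest on this tumor are given with and without it. Other tumors stood apart in other markers. Muscle markers summed to 1390 CPM in As300 replicate 1 and 1368 in Control replicate 2, against at most 272 elsewhere. Adipocyte markers summed to 692 CPM in ASC replicate 2, against at most 331 elsewhere. Neural markers summed to 88.8 to 123 CPM in As300, against at most 62.9 in the other groups. The defining T and NK cell markers had counts in every tumor.

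Ifng RNA was scarce in tumors without ASC and was seen in every tumor with ASC. Its counts were 5, 12 and 4 in Control, and 12, 0 and 23 in As300. They were 114, 64 and 96 in ASC, and 100, 112 and 178 in ASC_As300. All 6 tumors with ASC were thus above all 6 without it, a separation that 1.68% of all tested genes showed in this direction, and all 3 Control tumors and 2 As300 tumors were at or under the floor of 12 counts. In CPM the level was 0.14 ± 0.0785 (SD, n = 3) in Control, 2.09 ± 0.324 in ASC, 0.235 ± 0.211 in As300 and 2.53 ± 0.875 in ASC_As300. ASC and ASC_As300 overlapped each other, as did Control and As300.

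Over both iAs levels, Ifng rose with ASC by 3.63 ± 0.57 on the log2 scale (SE), a 12.4-fold difference with a 95% interval of 5.24 to 29.4 (edgeR adjusted p = 0.00385). In ASC against Control alone the log2 difference was 3.86 ± 0.83, and it missed the threshold (edgeR adjusted p = 0.0563), while DESeq2 gave a log2 difference of 3.89 with an adjusted p of 2.71e-06. In ASC_As300 against Control Ifng rose by 4.14 ± 0.83 (edgeR adjusted p = 0.0347), a call lost when any ASC_As300 or Control tumor or ASC replicate 1 was left out (adjusted p of 0.0525 to 0.155), while the log2 difference stayed between 3.83 and 4.71. ASC_As300 against As300 gave 3.41 ± 0.79 (edgeR adjusted p = 0.0813). The test over both iAs levels, with 6 tumors on each side, kept Ifng above the threshold with each tumor left out in turn, at an adjusted p of at most 0.0156.

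Because the Control counts amount to a few read pairs, the size of the change was also bounded by counting. Summed over 3 tumors, Control had 21 counts, ASC 274, As300 35 and ASC_As300 390. At 4 counts a pair, the depth-scaled ratio to Control was 14.7 (95% exact interval 5.99 to 46.6) in ASC, 18.0 (7.45 to 56.6) in ASC_As300 and 1.75 (0.527 to 6.65) in As300. The As300 interval includes no difference and a difference of several fold, so that these counts do not settle whether Ifng changed with iAs alone. Without molecular identifiers on the reads, such intervals and floors describe the error of counting alone. With every value under 12 counts set to 12, the fold over Control was 8.42 in ASC and 9.92 in ASC_As300. A predicted gene on the same strand, Gm49751, shares 336 of the 1295 exon bases of Ifng, so that some reads could be divided between them, and it had 1 to 16 counts in tumors with ASC and 0 to 1 in the others.

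**Figure D1:**
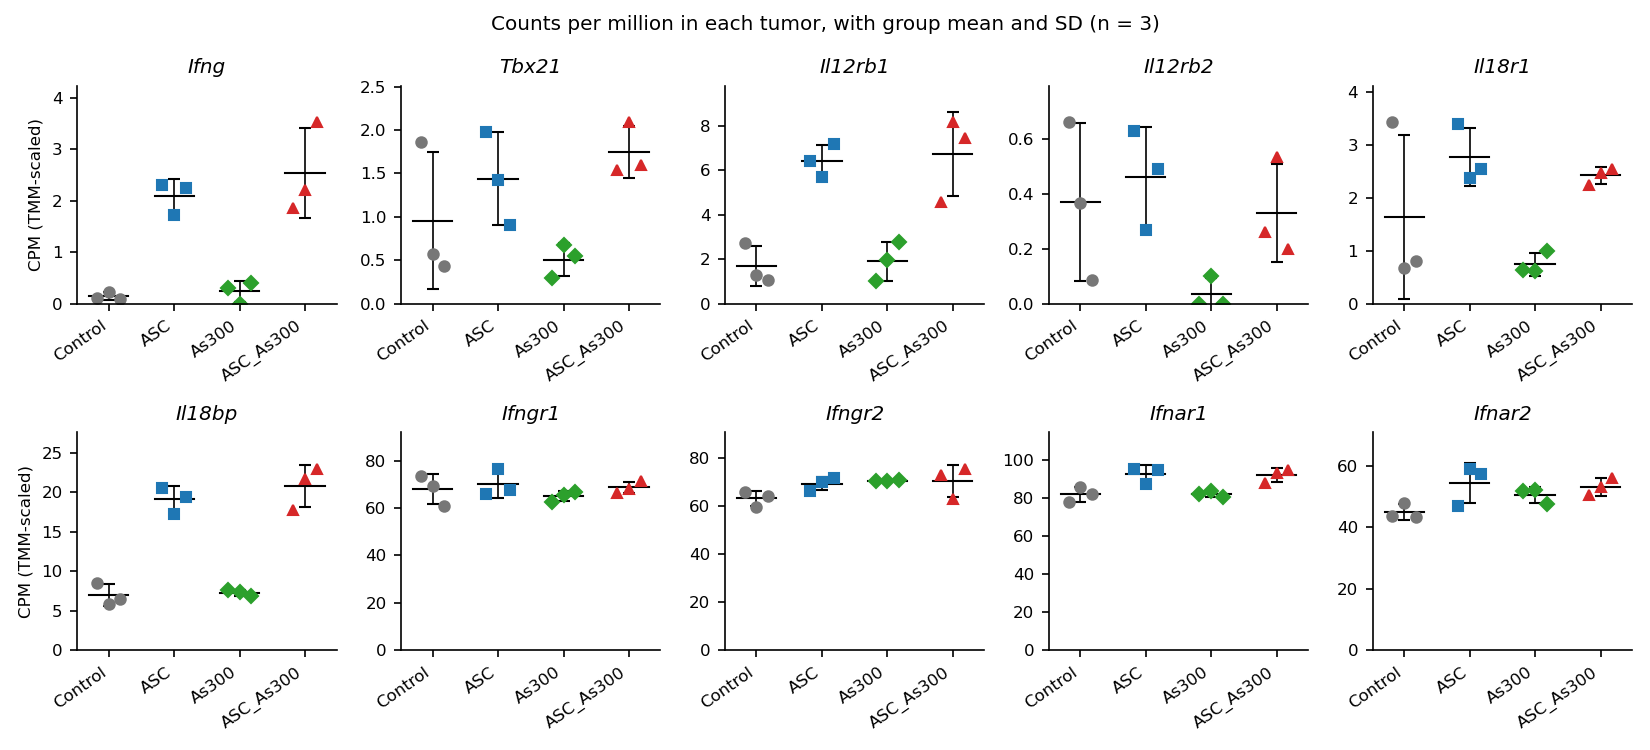
Each panel shows 1 gene, with TMM-scaled CPM on a linear axis from 0, 1 point per tumor, the group mean as a line and the SD as a bar (n = 3). Ifng, Il12rb1 and Il18bp separate the 6 tumors with ASC from the 6 without, Tbx21 and Il18r1 do so apart from Control replicate 1, and the receptor chains in the lower row stay within 1.36-fold.

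In bulk tumors, fewer cells of a type and less RNA per cell cannot be told apart, and Ifng was therefore set beside the RNA of the cells that make it. The 16 T and NK cell markers, among them the T cell receptor subunits Cd3d, Cd3e and Cd3g and the NK receptor Ncr1, summed to 87.8 to 113 CPM in the 6 tumors with ASC. They summed to 26.1 to 35.8 CPM in 5 of the tumors without ASC and to 105 CPM in Control replicate 1. Ifng was 2.16% ± 0.303 (SD, n = 3) of this sum in ASC and 2.52% ± 0.518 in ASC_As300, against 0.372% ± 0.312 in Control and 0.759% ± 0.657 in As300. In Control replicate 1 Ifng was 0.0984% of the sum, a share that rests on 5 counts. Its T cell markers, at 77.1 CPM, were above those of every tumor with ASC (41.2 to 65.9), and its NK cell markers, at 27.9 CPM, below them (33.8 to 53.3). On the log2 scale, Ifng per marker RNA differed from Control by 2.54 in ASC, 2.76 in ASC_As300 and 0.77 in As300, differences of group means that were not tested. Without Control replicate 1 they were 1.82, 2.04 and 0.05, and without Control replicate 2 the first and second were 3.13 and 3.34. The As300 value was 1.77 without As300 replicate 2, the tumor with 0 Ifng counts, so that it rests on single tumors.

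**Figure D2:**
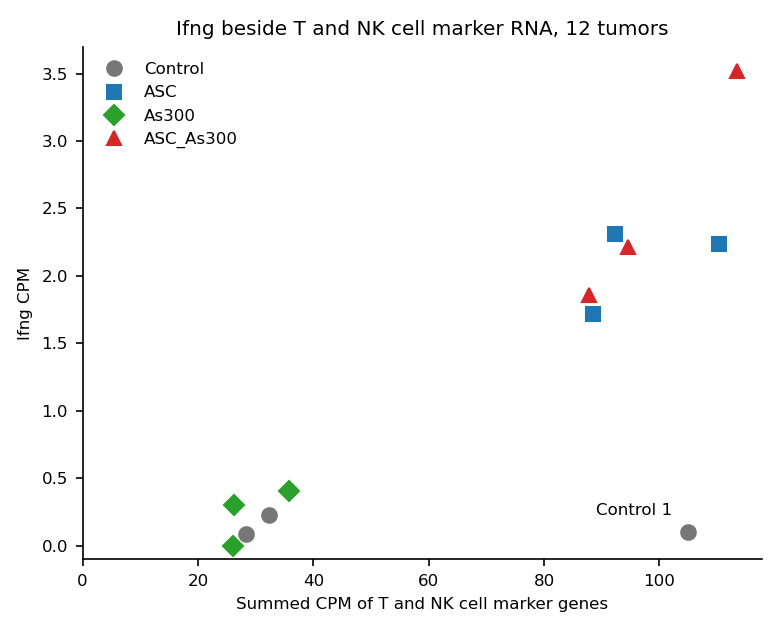
Each point is 1 tumor, with the summed CPM of 16 T and NK cell marker genes on the horizontal axis and Ifng CPM on the vertical axis, both linear. The 6 tumors with ASC lie at 87.8 to 113 marker CPM with Ifng at 1.72 to 3.52 CPM, while Control 1 lies at 105 marker CPM with Ifng at 0.103 CPM.

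Of the markers themselves, Cd8a, a chain of the CD8 coreceptor of cytotoxic T cells, rose with ASC over both iAs levels by 2.20 ± 0.49 (edgeR adjusted p = 0.0381). It was the only one of the 8 T cell markers that edgeR called up there, against 1.36% of all genes. At an unadjusted p under 0.05 were 6 of them (10.9% of all genes), and DESeq2 called 4 up (1.79% of its genes). Among the 8 NK cell markers, Klrk1, which encodes the activating receptor NKG2D, rose by 1.77 ± 0.22 and Nkg7, a cytotoxic granule protein gene, by 2.12 ± 0.34 (edgeR adjusted p = 0.000721 and 0.00483). These were the NK cell markers edgeR called, and DESeq2 called 5 of the 8 up (1.79% of its genes). All 8 NK cell markers and 7 of the 8 T cell markers had values above 0 in that comparison, where the median over all genes was -0.004. Without Control replicate 1, 7 of the 8 T cell markers and 4 of the 8 NK cell markers were called up by edgeR (1.86% of all genes). That tumor was set apart in part by its high T cell markers. The T cell count without it therefore follows in part from the choice of tumor and is not separate support. Among lists of other cells, 7 macrophage markers summed to 988 to 1396 CPM with ASC and 695 to 986 without (1 called up by edgeR), and 4 epithelial markers to 25.5 to 46.9 CPM with ASC and 64.2 to 360 without (1 called down). The part of any of these cells in the change of Ifng was not tested.

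Il12rb1, the interleukin-12 receptor chain that is shared with the interleukin-23 receptor, was higher in every tumor with ASC. It had 132, 67 and 50 counts in Control and 40, 95 and 157 in As300. It had 316, 213 and 307 counts in ASC and 246, 413 and 377 in ASC_As300. As for Ifng, the 6 tumors with ASC lay above the 6 without, and the CPM means were 1.7 ± 0.896 in Control, 6.42 ± 0.724 in ASC, 1.91 ± 0.886 in As300 and 6.73 ± 1.9 in ASC_As300. The change over both iAs levels was 1.86 ± 0.29 on the log2 scale, 3.64-fold with an interval of 2.35 to 5.64 (edgeR adjusted p = 0.00354). In ASC_As300 against Control it rose by 1.98 ± 0.41 (edgeR adjusted p = 0.0409), and the corresponding value in ASC, 1.92 ± 0.41, missed the threshold (edgeR adjusted p = 0.0566). These calls lay close to the threshold: leaving out Control replicate 1 gave 2.44 and a call in ASC (edgeR adjusted p = 0.0127, with 0.979% of all genes called up), and leaving out Control replicate 3 gave 1.76 and no call in ASC_As300 (edgeR adjusted p = 0.16).

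Il12rb2, the signaling chain that makes the receptor specific for interleukin-12, had few counts and was not called in any comparison. It was the least abundant of the 10 genes per length, at a mean over all tumors of 0.0789 CPM per kb of exon. Counts were 32, 19 and 4 in Control and 31, 10 and 21 in ASC. They were 0, 5 and 0 in As300 and 14, 27 and 10 in ASC_As300. The 3 As300 tumors were all at or under the floor, while Control, ASC and ASC_As300 overlapped. Control replicate 3, ASC replicate 2 and ASC_As300 replicate 3 were under the floor as well. Over both iAs levels the log2 difference with ASC was 1.74 ± 0.76 (edgeR adjusted p = 0.424). It was 0.32 ± 0.98 in ASC against Control and 3.17 ± 1.16 in ASC_As300 against As300 (edgeR adjusted p = 0.921 and 0.369). As300 was lower than Control by a log2 difference of -3.34 ± 1.17 that did not pass (edgeR adjusted p = 0.109), and the Control range reached down to 4 counts. That value ran from -7.16 without As300 replicate 2, the one As300 tumor with counts, to -2.62 without Control replicate 1. By counting, 5 counts in As300 against 55 in Control gave a depth-scaled ratio of 0.0694 (95% exact interval 0.00164 to 0.456). This interval describes the error of counting alone and leaves out the spread between tumors. Of the 55 Control counts, 32 came from Control replicate 1. The gene shares 1519 of its 3794 exon bases with Serbp1 on the opposite strand, which had 14330 to 21491 counts, and as the strand setting of the counting is not stated, the values of Il12rb2 are uncertain.

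Tbx21 and Il18r1 showed a pattern like each other, with 1 Control tumor among the high values. Tbx21 had 90, 30 and 20 counts in Control and 12, 33 and 31 in As300. It had 98, 53 and 39 counts in ASC and 83, 106 and 81 in ASC_As300. Il18r1, which binds interleukin-18, had 166, 35 and 37 counts in Control, 25, 30 and 56 in As300, 168, 89 and 109 in ASC and 121, 125 and 129 in ASC_As300. In both genes Control replicate 1 was at the level of the tumors with ASC, and it was the tumor with the most T and B cell marker RNA, whose part in these values was not tested. The other 5 tumors without ASC were below all 6 with ASC, at 0.3 to 0.675 CPM against 0.909 to 2.09 for Tbx21 and 0.613 to 0.989 CPM against 2.25 to 3.4 for Il18r1. With Control replicate 1 kept, the ranges overlapped in both genes. That tumor held the highest value without ASC in each, so leaving it out favors such a gap and a call. How many of all genes show a gap after such a removal was not counted. Over both iAs levels the log2 difference with ASC was 1.18 ± 0.38 for Tbx21 (edgeR adjusted p = 0.212) and 1.23 ± 0.37 for Il18r1 (edgeR adjusted p = 0.162), and neither was called. Without Control replicate 1 the differences were 1.64 ± 0.31 and 1.80 ± 0.23, and both were called (edgeR adjusted p = 0.0137 and 0.000738). In that fit 5 of the 10 genes were called up, against 1.86% of 21664 tested genes. Neither gene of the pair was called in As300 against Control, where the log2 differences of -0.90 ± 0.55 and -1.13 ± 0.53 turned to values near 0 without Control replicate 1, 0.029 for Tbx21 and 0.033 for Il18r1.

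Il18bp had the smallest p of the 10 genes with ASC over both iAs levels. Counts were 412, 306 and 301 in Control, 302, 357 and 385 in As300, 1018, 645 and 834 in ASC, and 956, 1098 and 1162 in ASC_As300. In CPM this was 6.97 ± 1.38 in Control, 7.22 ± 0.386 in As300, 19.1 ± 1.69 in ASC and 20.8 ± 2.7 in ASC_As300, with a gap between 8.51, the highest value without ASC, and 17.3, the lowest with it. Il18bp rose by 1.45 ± 0.16 in ASC and by 1.58 ± 0.16 in ASC_As300 against Control (edgeR adjusted p = 0.000781 and 0.000564), and by 1.53 ± 0.16 in ASC_As300 against As300 (edgeR adjusted p = 0.000479). Over both iAs levels the change was 2.81-fold, with an interval of 2.36 to 3.35 (edgeR adjusted p = 1.15e-05). It was the only gene of the 10 whose call held in each of these comparisons under every setting that was run, with adjusted p-values of at most 0.0191. It shares 80 of its 3026 exon bases with Numa1 on the other strand.

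The receptor chains for the interferons were abundant and varied little. Per kb of exon, the mean over all tumors was 23.9 CPM for Ifngr1, 18.1 for Ifngr2, 15.3 for Ifnar2 and 14.6 for Ifnar1, against 0.964 for Ifng and 4.47 for Il18bp on the same scale. The ratio of the highest tumor to the lowest was 1.26 for Ifngr1, 1.27 for Ifngr2, 1.22 for Ifnar1 and 1.36 for Ifnar2. No receptor chain was called in any comparison. For Ifngr1, the ligand-binding chain, the fold with ASC over both iAs levels was 1.04 with an interval of 0.951 to 1.15, and for Ifngr2, the chain that recruits Jak2, it was 1.05 with an interval of 0.962 to 1.14, so that a change of 1.5-fold lies outside both intervals.

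Ifnar1 was the receptor chain whose ranges separated all 6 tumors with ASC from the 6 without, at a small difference. It had 77.8, 85.8 and 81.7 CPM in Control, 82.0, 83.5 and 80.6 in As300, 95.2, 87.1 and 94.8 in ASC and 87.6, 93.2 and 94.4 in ASC_As300. All 6 tumors with ASC were above the other 6, by 1.12-fold (interval 1.04 to 1.21), which did not pass over all genes (edgeR adjusted p = 0.144) and is under the minimum of 1.5-fold. Ifnar2, its partner chain, was at 45.0 ± 2.48 CPM in Control, 54.5 ± 6.54 in ASC, 50.5 ± 2.6 in As300 and 53.2 ± 2.82 in ASC_As300. Its ASC and Control ranges overlapped, while its ASC_As300 tumors lay above the Control tumors (13.5% of all genes did so), and it was not called (edgeR adjusted p = 0.261). In As300 the 3 Ifngr2 values of 70.1 to 70.6 CPM lay above the 3 Control values of 59.3 to 65.6 CPM, a fold of 1.12 that was not called (edgeR adjusted p = 0.249). The ASC values of Ifngr2, 66.2 to 71.4 CPM, also lay above Control and were not called (edgeR adjusted p = 0.457). Ranges that do not overlap in that direction were found in 14.5% of all genes tested in As300 against Control. Ifnar2, Ifnar1 and Ifngr2 are neighbours on chromosome 16, between 91372783 and 91565623 on the plus strand (GRCm38, GENCODE M21), and Ifngr1 is at 19591949 to 19610229 on chromosome 10.

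Counted over all 10 genes, calls were in the ASC comparisons and upward. Over both iAs levels, 3 of 10 were called up (Ifng, Il12rb1 and Il18bp), against 1.36% of all genes. In ASC against Control 1 of 10 was called up (0.706% of all genes), in ASC_As300 against Control 3 of 10 (0.783%) and in ASC_As300 against As300 1 of 10 (0.793%). DESeq2 called up 3 of 10 in ASC against Control (2.53% of its genes), 2 of 10 in ASC_As300 against Control (2.21%), 3 of 10 in ASC_As300 against As300 (1.49%) and 4 of 10 over both iAs levels (1.79%), where the further gene was Il18r1. Without Control replicate 1, edgeR called 3 of 10 in ASC against Control (0.979%), 3 of 10 in ASC_As300 against Control (0.919%) and 3 of 10 in ASC_As300 against As300 (1.07%). Ranges did not overlap, with the ASC tumors higher, for 5 of 10 genes in ASC against Control (9.94% of all genes), for 7 of 10 in ASC_As300 against As300 (11.3%) and for 4 of 10 over both iAs levels (1.68%). These comparisons share tumors with each other, and DESeq2 gave no adjusted p to Ifng, Il12rb2 and Tbx21 in ASC_As300 against Control. The median log2 difference of the 10 genes was 1.21 over both iAs levels, and that of all genes was -0.004.

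No gene of the 10 was called for iAs. In As300 against Control edgeR called 0 of 10, with 1 gene (Il12rb2) at an unadjusted p under 0.05, as 24.1% of all genes were, while 0.701% of all genes were called up and 0.355% down. Without Control replicate 1, edgeR called 0 of 21664 genes up in this comparison. DESeq2 called none of the 10 there, giving Il12rb2 no adjusted p, and called 2.89% of its genes up. Ifng differed by 0.73 with an interval of -1.05 to 2.51 on the log2 scale, and Il18bp by 0.05 with an interval of -0.30 to 0.40. In ASC_As300 against ASC edgeR and DESeq2 called 0 of 10, none with an unadjusted edgeR p under 0.05 (3.21% of all genes), and edgeR called 0.0% and DESeq2 0.0167% of all genes up. Over both ASC levels, the iAs effect gave 0 calls by either tool. Il12rb2 had an unadjusted edgeR p under 0.05 (16.0% of all genes) and no adjusted p from DESeq2. There edgeR called 0.0% and DESeq2 0.203% of all genes up. The log2 difference of ASC_As300 against ASC was 0.28 (interval -1.24 to 1.80) for Ifng, 0.07 (-0.79 to 0.92) for Il12rb1 and 0.12 (-0.22 to 0.47) for Il18bp. The interaction, the test of whether the ASC effect differed with iAs, called 0 of 10 by edgeR, with 0 at an unadjusted p under 0.05 (13.6% of all genes). DESeq2 gave no adjusted p to Ifng, Il12rb1, Il12rb2, Tbx21 and Il18r1 there. It called none of the others and 0.199% of all genes up. The edgeR value of the interaction was 0.07 for Il18bp (interval -0.42 to 0.56) and -0.45 for Ifng (interval -2.77 to 1.86). The latter interval spans several-fold differences either way.

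**Figure D3:**
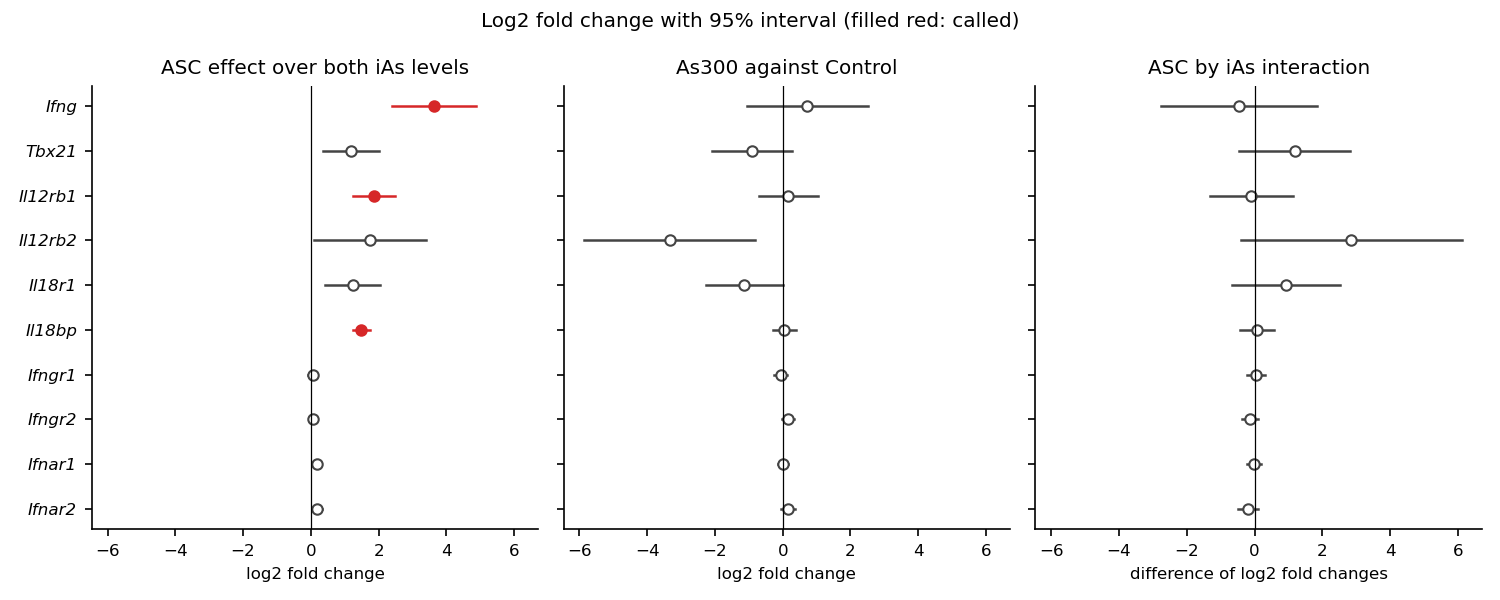
Points give the log2 fold change of each gene and lines its 95% interval, in 3 panels for the ASC effect over both iAs levels, As300 against Control and the interaction, with filled red points for called genes. Ifng (3.63), Il12rb1 (1.86) and Il18bp (1.49) were called in the first panel and no gene in the other panels, where Il12rb2 had the widest interval.

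Other cytokines and receptors that act upstream of Ifng were taken as a list of 13 genes, 9 of which passed the filter on low counts. Il12a, Il2, Il21 and Il23r did not pass, with at most 18 counts in a tumor. Over both iAs levels, 5 of the 9 were called up with ASC (1.36% of all genes). Il2rb, the receptor chain for interleukins 2 and 15 on T and NK cells, rose by 1.74 ± 0.21 (edgeR adjusted p = 0.000367), and Il15ra, which presents interleukin-15, by 1.38 ± 0.12 (edgeR adjusted p = 2.45e-05). Il18rap, the signaling chain that pairs with Il18r1, rose 2.14-fold, from means of 8.91 CPM in Control and 7.17 in As300 to 15.5 in ASC and 18.8 in ASC_As300. Il15 rose by 0.88 ± 0.15 on the log2 scale and Ebi3, a subunit of interleukin-27, by 0.74 ± 0.17. Il2rb and Il15ra were also called in ASC and in ASC_As300 against Control. The genes for the classical inducers were not called, with Il12b at 0.79 ± 0.49 and at most 65 counts and Il18 at 0.45 ± 0.20 (edgeR adjusted p = 0.63 and 0.441). Nor were the cytokine subunit genes Il27, at 1.67 ± 0.59, and Il23a, at -1.10 ± 1.16 with at most 26 counts. The median of the list was 0.88. In As300 against Control edgeR and DESeq2 called none of its genes, and 1 had an unadjusted edgeR p under 0.05.

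Lymphocyte transcription factors other than Tbx21 stayed nearer to 0. Of 11 tested, 0 were called up or down with ASC over both iAs levels by edgeR, with Stat4 and Runx3 at an unadjusted p under 0.05 (10.9% of all genes), while DESeq2 called 1 up, and the median log2 difference was 0.09. Stat4, which carries the interleukin-12 signal, was at 0.68 ± 0.18 (edgeR adjusted p = 0.0963) and Eomes, the relative of T-bet, at 0.50 ± 0.23 (edgeR adjusted p = 0.467). Foxp3, the regulatory T cell factor, was at 0.06 ± 0.31. Without Control replicate 1, edgeR called 1 of the 11 up over both iAs levels (1.86% of all genes). In As300 against Control, Stat4 fell by 1.31 on the log2 scale (edgeR adjusted p = 0.043), from a mean of 4.06 CPM in Control to 1.63 in As300, and it was the only gene of the pathway lists that edgeR called in that comparison. DESeq2 called Stat4 down there as well (1.86% of its genes were), and Hlx and Socs1 up (2.89%). The call was lost in 10 of the 12 fits with a tumor left out, among them that without Control replicate 1 (-1.06, edgeR adjusted p = 0.0777). T cell markers were lower in As300 as well, with 8 of 8 below 0 and a median of -1.27. Of these edgeR called none, with 3 at an unadjusted p under 0.05, and DESeq2 called Lck down. Without Control replicate 1 the median was 0.25.

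Genes that signal for IFNγ or respond to it formed the list with the most calls. Of 13, 9 were called up with ASC over both iAs levels, against 1.36% of all genes. In ASC against Control 8 were called up (0.706%), in ASC_As300 against Control 8 (0.783%) and in ASC_As300 against As300 7 (0.793%). In As300 against Control edgeR called 0 of them, with 6 at an unadjusted p under 0.05, against 24.1% of all genes. Of these 6, Jak1, Jak2, Ptpn2, Ciita and Cd274 were lower and Socs1 higher, and DESeq2 called Socs1 up (2.89% of its genes were). Gbp2, a guanylate-binding protein of cell-autonomous defence, rose 12.6-fold, from 26.9 CPM in Control and 24.0 in As300 to 287 in ASC and 354 in ASC_As300 (edgeR adjusted p = 3.74e-07). Igtp, an immunity-related GTPase, rose 9.46-fold, and Irf1, the transcription factor that IFNγ induces, 2.98-fold (edgeR adjusted p = 3.74e-07 and 1.37e-06). The genes that were not called were the kinases Jak1 (0.03 ± 0.08) and Jak2 (0.20 ± 0.09), the phosphatase Ptpn2 (0.03 ± 0.08) and Ciita, the activator of MHC class II genes (0.94 ± 0.47). The median of the list was 1.57. The study itself singled out Irf1 and Cd274 and reported type II interferon signaling among the pathways enriched in its ASC groups. By RT-qPCR it also reported higher IFNγ and IRF1 in ASC and ASC_As300 tumors. In As300 tumors it reported no induction of IFNγ and no significant induction of IRF1. The list was chosen with earlier results of these data known, so that its counts are not independent evidence of the direction.

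The type I and type III interferon genes themselves were near or at 0. Ifnb1 had 0 to 13 counts per tumor, Ifna4 0 to 8, and Ifna1, Ifna2, Ifnl2 and Ifnl3 none in any tumor. The receptor chain Ifnlr1 had 0 to 8 counts. Of 17 genes in this list 7 were tested and 3 were called up with ASC over both iAs levels (1.36% of all genes). Stat2 rose by 1.16 ± 0.12, Irf9 by 0.69 ± 0.09 and Usp18, an inhibitor of Ifnar2 signaling, by 1.12 ± 0.24. Their edgeR adjusted p-values were 0.000126, 0.00071 and 0.0298. Tyk2, the kinase bound to Ifnar1, was at 0.04 ± 0.09.

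**Figure D4:**
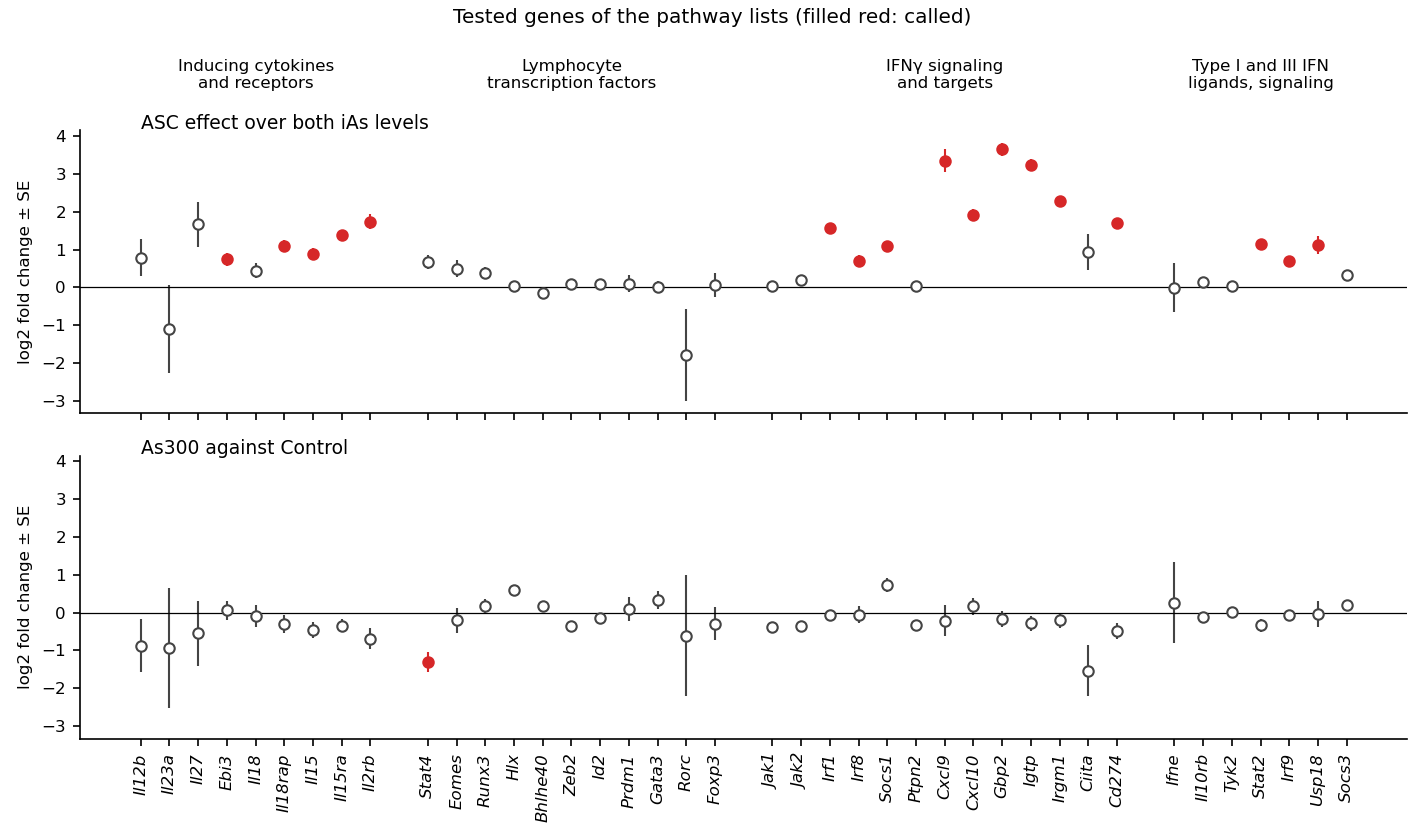
Points give the log2 fold change and bars the SE of every tested gene in the 4 pathway lists, for the ASC effect over both iAs levels above and As300 against Control below, with filled red points for genes called by edgeR. The 9 called IFNγ signaling and target genes lie between 0.69 and 3.65 in the upper panel, and Stat4 at -1.31 is the only called gene in the lower panel.

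Genes with profiles nearest to those of the called genes were ranked by the mean absolute difference of log2 CPM over the 12 tumors, each gene centred on its own mean. Nearest to Ifng were Tgtp2 (0.447), Batf2 (0.473), Cxcl9 (0.479), Tgtp1 (0.488), Iigp1 (0.495) and Gbp2 (0.537). Tgtp1 and Tgtp2 are near-identical copies and their counts may be divided arbitrarily. The ranking for Ifng depends on how its few counts are damped, since only 1 of the 6 genes remained with a prior count of 8 in place of 2. Nearest to Il12rb1 were Psmb8 (0.263) and Tap2 (0.267), of antigen processing, and Lag3 (0.274), an inhibitory receptor of T and NK cells. Nearest to Il18bp were Irf1 (0.098), Tapbpl (0.124) and Dtx3l (0.143). The measure has no test, and the tumors share group structure.

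**Figure D5:**
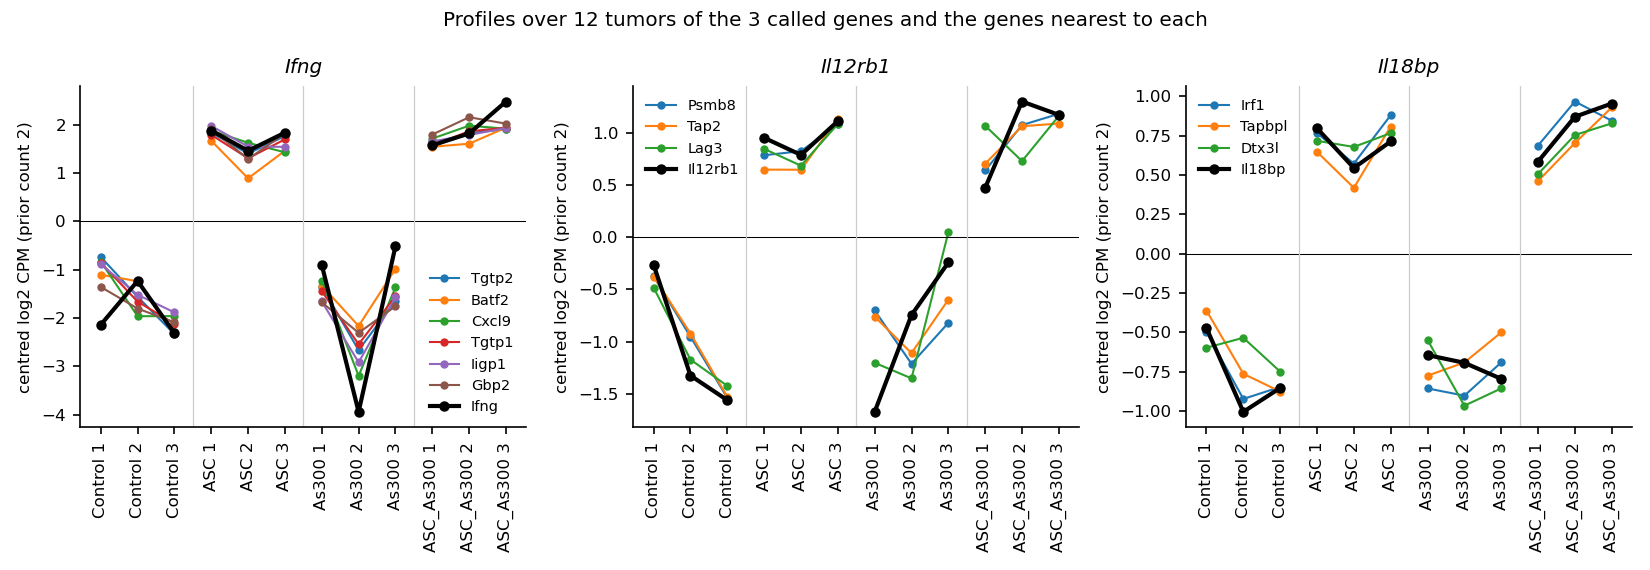
Panels show log2 CPM (prior count 2), centred on each gene's mean, in 12 tumors for Ifng, Il12rb1 and Il18bp (black) and the genes nearest to each, with lines joining tumors of a group only for legibility. In Control 1 Ifng lies below its neighbours, and Il18bp and Irf1 differ by 0.098 on average.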

How the data were processed

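RNA from 12 TC2Ras tumors was sequenced as paired-end reads from a stranded, poly(A)-selected library kit. The deposited count values, whole numbers per Ensembl gene without normalization, were made by the authors from reads trimmed with Cutadapt (1.1.0 in the submitters' processing notes), aligned with HISAT2 (2.0) and quantified with StringTie (1.3.4). The genome build, the annotation and the step that turned these into counts, with its strand setting, are not given in the sources used here.

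Counts were analysed in R 4.3.3 with edgeR 4.0.16 (filterByExpr by group, TMM, glmQLFit and glmQLFTest with 1 mean per group over all 12 tumors, common dispersion 0.1081), which left 20818 genes. All 10 genes passed this filter. TMM factors lay between 0.9535 and 1.054. Intervals cover 95%, and log2 CPM for profiles used a prior count of 2. Symbols, exon lengths and positions came from GENCODE M21 (GRCm38), which held 55141 of the 55401 identifiers, and promoters from RefSeq. With 3 tumors a side the smallest exact p is 0.1, and p-values therefore come from the fitted models and measure the spread between tumors. No pair of tumors within a group agreed within sampling noise (chi-square per degree of freedom of at least 22.7). The fit was tested on simulated data.

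Alternatives were DESeq2 1.42.0, its size factors, other filters on low counts, no minimum fold, only the tumors compared, the replicate number as a block, counts divided by 4, a GC correction, and each tumor left out, with 2 tumors then in its group. The genes and lists were chosen with earlier results of these data known. Named genes are all 10 members, up to 3 members of a list with the smallest p in a comparison, and the nearest profiles. The other list genes named with values were chosen after their values were seen. For 1 item of the IFNγ signaling list, values are not reported here.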

Additional observations from a re-analysis of the deposited data

How the results depend on the processing

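Calls near the threshold moved with the settings, and directions of called genes did not. In ASC against Control 1 of the 10 genes was called, against 3 by DESeq2 and with counts divided by 4, 2 with at least 10 counts in every tumor, 2 with only the tumors compared, 2 with the GC correction, and 1 to 3 with a tumor left out (3 without Control replicate 1, and 2 without any As300 tumor or ASC replicate 1). In ASC_As300 against Control 3 were called and 1 to 3 with a tumor left out (1 without ASC_As300 replicate 2 or 3, ASC replicate 1, or Control replicate 2 or 3). In ASC_As300 against As300 1 was called, against 3 by DESeq2, 2 with only the tumors compared, 2 with counts divided by 4, 2 with the GC correction, and 1 to 3 with a tumor left out (3 without Control replicate 1, 2 without As300 replicate 2). Over both iAs levels 3 were called and 3 to 5 with a tumor left out, 5 without Control replicate 1. With the replicate number as a block, 1 of the 10 genes was called in ASC_As300 against Control, Ifng and Il12rb1 missing at adjusted p-values of 0.0662 and 0.0831. The numbers do not pair the tumors: same-numbered tumors of different groups had correlations of -0.124 to 0.172, and 3 of 12 tumors correlated best with their own number. DESeq2 gave no adjusted p to Ifng, Il12rb2 and Tbx21 in ASC_As300 against Control, nor to Il12rb2 in ASC against Control. The few read pairs behind Ifng and Il12rb2 limit their values. The cause of these moves was not tested.

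Only values that were not called changed sign. The interaction of Ifngr1 was -0.0079 with at least 10 counts in every tumor, -0.011 with counts divided by 4 and -0.0031 with the GC correction. The iAs effect on Ifnar1 was 0.0043 by DESeq2, 0.0045 with its size factors, 0.00035 with no filter, 0.011 with at least 10 counts, 0.012 with counts divided by 4 and 0.0076 with the GC correction. With that correction Ifnar1 was 0.0045 in ASC_As300 against ASC, and Il12rb1 was -0.088 in As300 against Control, -0.021 in the iAs effect and 0.13 in the interaction. Leaving out each tumor in turn turned the sign of these log2 values. In ASC_As300 against ASC the ranges were Ifng -0.034 to 0.45, Ifngr1 -0.081 to 0.044, Ifngr2 -0.026 to 0.091, Ifnar1 -0.049 to 0.021, Ifnar2 -0.14 to 0.031 and Il12rb1 -0.10 to 0.28. In the interaction the ranges were Ifng -1.04 to 0.21, Ifngr1 -0.048 to 0.11, Ifnar1 -0.077 to 0.0086, Il12rb1 -0.64 to 0.24, Il18r1 -0.23 to 1.28 and Il18bp -0.12 to 0.15. In ASC against Control the ranges were Ifngr1 -0.027 to 0.11 and Il12rb2 -0.13 to 1.03. In As300 against Control the ranges were Ifngr1 -0.11 to 0.016, Ifnar1 -0.013 to 0.064, Il12rb1 -0.18 to 0.70, Tbx21 -1.22 to 0.029, Il18r1 -1.48 to 0.033 and Il18bp -0.035 to 0.24. In ASC_As300 against Control the ranges were Ifngr1 -0.045 to 0.082 and Il12rb2 -0.68 to 0.54. In ASC_As300 against As300 the ranges were Ifngr2 -0.052 to 0.057. In the iAs effect the ranges were Ifnar1 -0.023 to 0.025, Il12rb1 -0.056 to 0.38 and Tbx21 -0.47 to 0.15.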
